A study of Mus musculus with 12 samples.

Results

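The genes described here drive and mark cell division in the mouse liver: 41 genes were listed by symbol, and 40 of them had a row among the 15140 genes of the count table (Bub1 was not analysed here). They were divided by role into 13 genes of G1, the phase before DNA synthesis, 15 genes of DNA replication and nucleotide supply, and 13 genes of mitosis, of which 12 were measured. A cell leaves rest when D-type cyclins with Cdk4 or Cdk6, and then E-type cyclins with Cdk2, phosphorylate the retinoblastoma protein and release E2F factors, while inhibitors such as p21 and p27 hold these kinases back. E2F factors switch on the genes that copy DNA, and a later set led by Foxm1 drives mitosis. Most hepatocytes of an adult liver rest outside the cycle.

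PolyA-selected RNA was sequenced from liver in 12 samples. The KO group (n = 6) came from mice in which prohibitin 1, a mitochondrial scaffold protein, was deleted in adipocytes (Phb1adipo-/-), and the WT group (n = 6) from wild-type mice. All were males that received a diet with 60% of its energy as fat for 3 months, from an age of 7 to 8 weeks. Neither the strain, nor the promoter behind the deletion, nor whether the 12 libraries stem from 12 animals is given in the sources used here. The p-values set the difference between KO and WT against the spread of libraries within a group. That spread may not be one between animals and may in part be technical.

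Total counts were 30348123 to 40828767 per library. The liver origin of the samples showed in 10 of 10 hepatocyte markers with a row, whose summed level was 74713 to 100167 counts per 1000000 (CPM) in KO and 74356 to 105185 CPM in WT. Phb, the gene of prohibitin 1, was present in every library (88.6 to 100.4 CPM in KO and 80.0 to 91.2 CPM in WT), and since the deletion was aimed at fat cells this does not check the labels. Within the KO group, library 2 held the highest value of 19 of the 40 cell cycle genes. Among them were 10 of 12 mitosis genes and 6 of 15 replication genes. The same share over all genes was not counted. Library 2 also stood apart over the whole table. Its chi-square per degree of freedom against KO libraries 1, 3, 5 and 6 was 126 to 169. KO pairs without it had at most 114. Its TMM scaling factor (1.09) was the largest of all libraries. Results that rest on it are therefore also given without it.

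Levels differed widely between the 3 roles. Per kilobase of exon, the 12 mitosis genes had a median WT level of 0.329 CPM (range 0.127 to 1.33), the 15 replication genes 1.23 CPM (range 0.555 to 11.96) and the 13 G1 genes 1.97 CPM (range 0.602 to 10.01). The 8 lowest of all 40 were mitosis genes, from Mki67 (0.523 CPM per kilobase) down to Foxm1 (0.127). The highest were Mcm10 (11.96), the DNA clamp gene Pcna (10.1), the G1 kinase gene Cdk4 (10.01) and Cdkn1b, which encodes the inhibitor p27 (6.93). In raw counts, a mitosis gene had 8 to 261 reads in a library, against 50 to 5359 for a replication gene and 30 to 3296 for a G1 gene, so the mitosis values carry the most counting error.

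**Figure D1:**
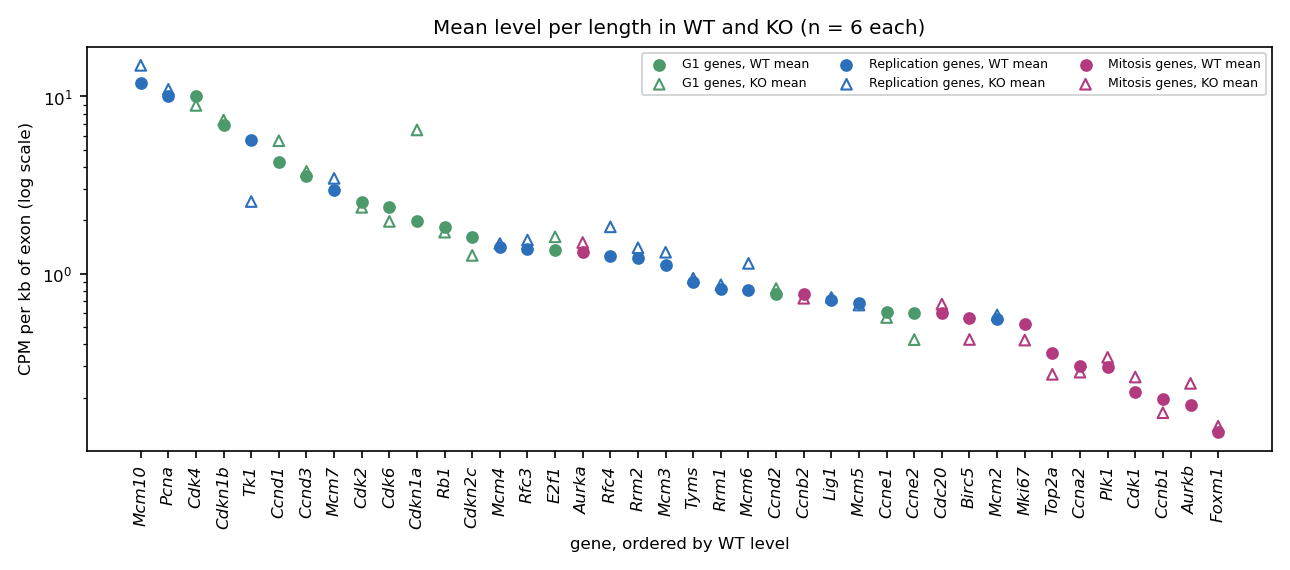
Mean level of each gene per kilobase of exon (CPM per kb, log axis) in WT (filled circles) and KO (open triangles), n = 6 libraries each, ordered by the WT level; colours give the role. Mcm10 leads and mitosis genes fill the low end, and the symbols of Tk1 and Cdkn1a are the farthest apart.

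Of the 40 cell cycle genes, 1 changed between KO and WT livers, the thymidine kinase gene Tk1, which fell (quasi-likelihood test of edgeR over 15000 genes, with p adjusted by Benjamini-Hochberg and a threshold of 0.05). Over all genes 2.64% were called, 1.15% higher in KO and 1.49% lower, so 1 of 40 is a share near that of the whole table. At an unadjusted p under 0.05 there were 8 cell cycle genes, 4 higher (Cdkn1a, Rfc4, Mcm6 and Mcm7) and 4 lower in KO (Tk1, Cdk4, Cdk6 and Ccne2), beside 21.2% of all genes, 10.7% higher and 10.6% lower. For none of the 40 did the 6 KO and 6 WT values fall into separate ranges, which they did for 2.53% of all genes. Positive log2 fold changes were found for 25 of the 40, against 50.6% of all genes, and the median was 0.08 beside 0.0031 for all genes. Without KO library 2 these were 22 of 40 and 0.02. In the authors' deposited table, 3 of the 40 (Tk1, Rfc4 and Cdkn1a) were under that threshold, as were 5.58% of its genes, and DESeq2 gave 3 (Tk1, Rfc4 and Cdk4) and 8.47%. Both rest on the same counts, so they are no separate evidence.

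**Figure D2:**
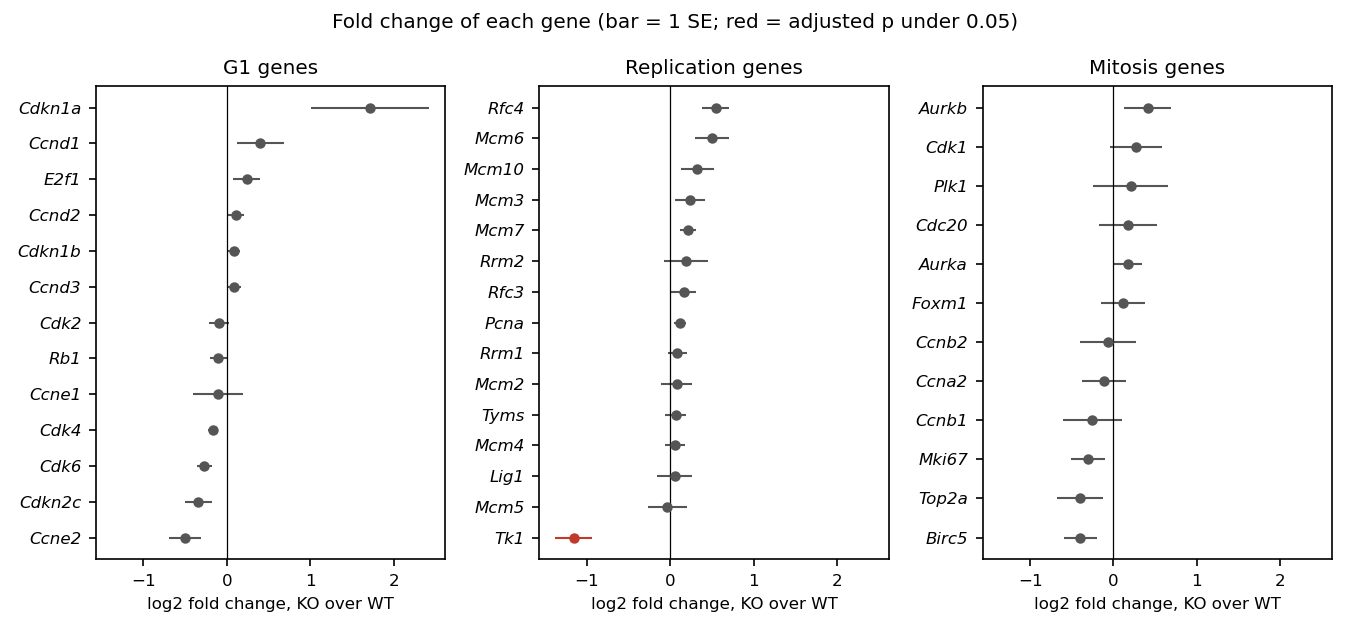
Log2 fold change of KO over WT for each gene (points) with 1 SE (bars), in panels for G1, replication and mitosis genes; red marks an adjusted p under 0.05. Tk1, at -1.16 ± 0.22, is the 1 red point, and Cdkn1a (1.72 ± 0.71) has the longest bar.

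Tk1 encodes cytosolic thymidine kinase, which returns thymidine to the nucleotide pool for DNA synthesis (ENSMUSG00000025574, GRCm38 chromosome 11, 117815526 to 117826092, minus strand). KO libraries 1 to 6 had 11.9, 11.8, 15.0, 16.4, 13.5 and 11.004 CPM. WT libraries 1 to 6 had 19.2, 38.1, 28.4, 40.5, 35.7 and 15.3 CPM. The KO values lay close together, whereas WT libraries 1 and 6 were low and the other 4 WT libraries were high; 5 of 6 KO libraries were below every WT library, and KO library 4 overlapped only WT library 6. The mean was 13.3 ± 2.10 CPM in KO and 29.5 ± 10.4 CPM in WT (SD, n = 6 each), and Tk1 fell by 1.16 ± 0.22 on the log2 scale (SE; edgeR, adjusted p = 0.0253), or 2.23-fold. The call was lost without KO library 6 (0.0610), WT library 2 (0.0591), WT library 4 (0.0586) or WT library 5 (edgeR adjusted p = 0.0624), while the log2 fold change stayed between -1.29 and -1.04 whichever library was left out. In those fits far fewer genes were called over the whole table as well. Without WT library 4, 8 were higher and 17 lower, against 172 and 224 with all libraries. In bulk tissue, fewer cells that express a gene and less RNA per cell cannot be told apart. The authors' deposited table gave a log2 fold change of -1.15 with an adjusted p of 1.32e-05.

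Tk1 overlaps the start of Afmid, which encodes a formamidase of tryptophan breakdown and lies on the opposite strand (117825924 to 117839908), and 83 bases of their annotated exons overlap. Afmid had 18.2, 17.8, 25.6, 25.0, 21.8 and 20.1 CPM across KO libraries 1 to 6. It had 27.0, 47.4, 33.2, 48.1, 42.2 and 18.8 CPM across WT libraries 1 to 6. The same 4 WT libraries were high for both genes, and WT libraries 1 and 6 were low for both. The log2 fold change of Afmid was -0.76 ± 0.21 (SE; edgeR, adjusted p = 0.0699), so it did not pass. The strand setting of the counting is not given in the sources used here, so reads of the shared bases cannot be told apart, and their part in the Tk1 result was not tested.

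The sequence before the start of Tk1 lies inside the Afmid gene and is shown with those of Mcm6 and Cdk1, a replication and a mitosis gene that did not pass the test, because these windows are where E2F and cell cycle promoter motifs are looked for. The windows are the 250 bases before the RefSeq start (GRCm38.p6), each on the gene's own strand, and bases that GENCODE M21 places in an exon are not printed (78 for Tk1 and 26 for Cdk1). Capitals mark matches on either strand to an E2F site (TTTGGCGC, TTTCCCGC, TTTCGCGC or TTTGCCGC), the cell cycle homology region (CHR, TTTGAA), the CCAAT box (CCAAT) or the E-box (CACGTG).
Tk1, chr11:117826093-117826264, minus strand: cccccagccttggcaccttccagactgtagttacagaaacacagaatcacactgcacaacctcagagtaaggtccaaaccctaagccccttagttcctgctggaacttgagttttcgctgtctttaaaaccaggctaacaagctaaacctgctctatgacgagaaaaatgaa
Mcm6, chr1:128359706-128359955, minus strand: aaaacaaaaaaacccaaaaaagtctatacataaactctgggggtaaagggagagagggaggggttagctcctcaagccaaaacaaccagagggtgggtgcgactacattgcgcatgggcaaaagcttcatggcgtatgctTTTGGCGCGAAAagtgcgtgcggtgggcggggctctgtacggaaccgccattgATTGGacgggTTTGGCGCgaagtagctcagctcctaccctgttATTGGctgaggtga
Cdk1, chr10:69352939-69353162, minus strand: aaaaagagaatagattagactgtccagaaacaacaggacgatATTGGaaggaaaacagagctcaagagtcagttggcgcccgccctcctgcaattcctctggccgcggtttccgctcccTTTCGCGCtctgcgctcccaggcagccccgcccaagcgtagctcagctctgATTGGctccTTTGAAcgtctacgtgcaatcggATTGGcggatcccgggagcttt
The whole Tk1 window held no match to any of these motifs, which says only that these letters are not in it. The Mcm6 window held 3 E2F matches, of which 2 overlap in 1 run of capitals, and 2 CCAAT boxes read on the opposite strand. The whole Cdk1 window held 1 E2F match, 2 CHR matches, of which 1 lies in the exon bases left out, and 3 CCAAT boxes. Mcm6 and Cdk1 are not typical windows of their groups. The Mcm6 window had the most E2F matches of any cell cycle gene, and the Cdk1 window had the only one among mitosis genes.

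Windows were found for 33 of the 41 genes, with 39 windows in all. An E2F match was in 4 of 17 replication windows, 1 of 12 G1 windows and 1 of 10 mitosis windows, against 1.86% of all 32851 promoters of this length. The CHR was in 5 of 10 mitosis windows (Mki67, Top2a, Ccnb2, Cdk1 and Cdc20), 1 of 17 replication windows and 0 of 12 G1 windows, against 16.0% of all promoters. A CCAAT box was in 9 of 10 mitosis windows, 11 of 17 replication windows and 3 of 12 G1 windows, against 33.8%. The E-box was in 2 of 12 G1 windows, those of Cdk4 and Cdk6, in 1 of 17 replication windows, that of Tyms, and in 0 of 10 mitosis windows, against 6.02%. Genes with several starts have several windows, and the mitosis windows include that of Bub1. A match describes the letters of a window and does not show that a factor binds there.

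The other 14 replication genes did not pass the edgeR test, and 13 of them had positive log2 fold changes. Of all 15, 13 were positive and 2 negative, and without KO library 2 there were 11 positive and 4 negative. Rfc4, a subunit of the complex that loads the DNA clamp, came nearest. Its level was 2.12, 2.36, 3.63, 3.06, 3.02 and 2.71 CPM across KO libraries 1 to 6 and 1.67, 2.25, 2.31, 2.00, 1.65 and 1.69 CPM across WT libraries 1 to 6. In all, 5 of 6 KO libraries were above every WT library and KO library 1 lay inside the WT range; the log2 fold change was 0.54 ± 0.17 (SE; edgeR, adjusted p = 0.0888). It passed with DESeq2 (adjusted p = 0.0310) and in the authors' deposited table (adjusted p = 0.0236). Rfc4 shares 194 exon bases with Eif4a2 on the opposite strand, a translation factor gene with a mean of 11447 reads per library (log2 fold change 0.24), so its reads are uncertain.

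Mcm2 to Mcm7 encode the ring that unwinds DNA at the fork. Mcm6 was at 4.62, 8.62, 3.47, 4.26, 6.01 and 5.02 CPM across KO libraries 1 to 6 and 3.03, 4.42, 3.08, 3.92, 3.87 and 4.33 CPM across WT libraries 1 to 6. KO libraries 1, 2, 5 and 6 were above all WT libraries, with library 2 highest; the log2 fold change of 0.50 ± 0.20 (SE; edgeR, adjusted p = 0.174) was 0.31 without that library. Mcm7 was at 13.0, 15.6, 14.1, 17.7, 14.6 and 16.5 CPM across the KO libraries and 13.6, 12.9, 12.7, 12.3, 11.8 and 16.0 CPM across WT libraries 1 to 6. KO libraries 4 and 6 exceeded WT library 6, the highest of its group (log2 fold change 0.21 ± 0.09, SE; edgeR, adjusted p = 0.213). Mcm7 shares exon bases with Cops6 and with Ap4m1, and Ap4m1 itself fell (log2 fold change -0.48; edgeR, adjusted p = 0.0295), so its reads are uncertain.

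Mcm2 was at 3.31, 5.97, 3.50, 4.42, 3.18 and 4.01 CPM across the KO libraries and 3.73, 4.58, 2.36, 4.00, 4.50 and 3.99 CPM across WT libraries 1 to 6, and the groups overlapped almost wholly, with KO library 2 highest and WT library 3 lowest. Its log2 fold change was 0.08 ± 0.19, and it was -0.06 without KO library 2. Log2 fold changes were 0.24 ± 0.18 for Mcm3, 0.06 ± 0.12 for Mcm4 and -0.03 ± 0.24 for Mcm5 (SE; edgeR, adjusted p from 0.462 to 0.952).

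Mcm10, which helps to activate the ring at origins, was the most abundant of the 40 genes per length, at 11.96 CPM per kilobase in WT, while Mcm2 to Mcm7 had 0.555 (Mcm2) to 2.98 (Mcm7). Its level was 142, 104, 165, 90.3, 75.4 and 115 CPM across KO libraries 1 to 6 and 109, 78.4, 122, 68.8, 69.6 and 105 CPM across WT libraries 1 to 6. KO libraries 1 and 3 were above every WT library and the rest overlapped (log2 fold change 0.33 ± 0.20, SE; edgeR, adjusted p = 0.374). No other annotated gene overlaps Mcm10 in GENCODE M21 (chromosome 2, 4989714 to 5012791).

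Pcna, the sliding clamp of the replication fork, was at 25.3, 30.0, 22.96, 27.8, 24.7 and 27.3 CPM across the KO libraries and 22.4, 25.0, 25.5, 24.7, 24.4 and 23.6 CPM across WT libraries 1 to 6. KO libraries 2, 4 and 6 were above all WT libraries and KO library 3 was below most (log2 fold change 0.12 ± 0.07, SE; edgeR, adjusted p = 0.342). The clamp loader gene Rfc3 (0.16 ± 0.15), the DNA ligase gene Lig1 (0.05 ± 0.21), both ribonucleotide reductase genes, Rrm1 (0.08 ± 0.11) and Rrm2 (0.19 ± 0.27), and the thymidylate synthase gene Tyms (0.07 ± 0.13) had adjusted p from 0.566 to 0.914 (log2, SE, edgeR). Without KO library 2, Lig1 had -0.14 and Rrm2 0.0033. Tyms makes thymidylate anew where Tk1 recovers it, and its level was 5.74 ± 0.985 CPM in KO and 5.48 ± 0.423 CPM in WT (SD, n = 6 each).

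**Figure D3:**
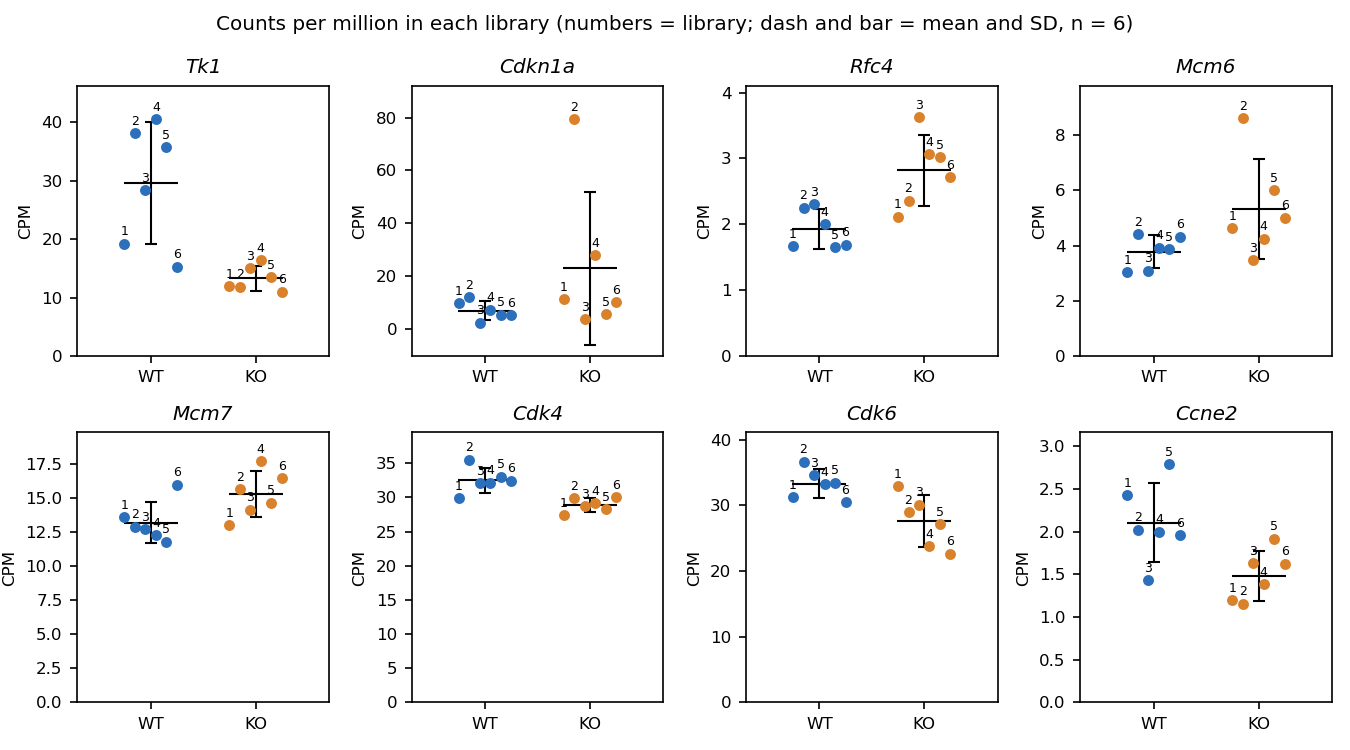
CPM in each library (points, numbered by library) for the 8 genes with an unadjusted edgeR p under 0.05, WT left and KO right; the dash and bar give the mean and SD of 6 libraries. The groups overlap in every panel, through KO library 4 and WT library 6 for Tk1, and Cdkn1a is high in KO libraries 2 and 4 only.

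Of the 13 G1 genes, 0 passed the edgeR test (4 at an unadjusted p under 0.05; 1, Cdk4, with DESeq2 and 0 with limma-voom). The median log2 fold change was -0.09, with 6 positive and 7 negative, and it turned to 0.02 without KO library 2 and to 0.08 without WT library 5. Among the inhibitors, Cdkn1a, which encodes p21, had the largest fold change of all 40 genes. It was at 11.3, 79.3, 3.72, 27.9, 5.56 and 10.2 CPM across KO libraries 1 to 6 and 9.78, 12.02, 2.43, 7.28, 5.39 and 5.17 CPM across WT libraries 1 to 6. KO libraries 2 and 4 were above every WT library, and the other 4 KO libraries lay inside the WT range. The log2 fold change was 1.72 ± 0.71 (SE, edgeR, adjusted p = 0.196) and 0.74 without KO library 2 (edgeR, adjusted p = 0.456). The authors' deposited table gave a log2 fold change of 1.72 with an adjusted p of 0.0443, whereas the gene did not pass with DESeq2 (adjusted p = 0.110). The highest KO value was 21.3 times the lowest, against 4.94 times in WT.

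p21 is a classic target of p53, and of 20 other genes of that pathway 0 were called (edgeR; 2 at an unadjusted p under 0.05, and 0 with DESeq2 or limma-voom), with a median log2 fold change of -0.06. Their summed level was 300.3, 446, 288, 334, 251 and 267 CPM across KO libraries 1 to 6 and 262 to 376 CPM over the WT libraries, so KO library 2 was highest here too. Those with the smallest p were Trp53 itself (log2 fold change 0.25 ± 0.09; edgeR, adjusted p = 0.115) and the DNA damage gene Gadd45a (-0.63 ± 0.29; adjusted p = 0.233, SE). The other inhibitor genes had log2 fold changes of 0.09 ± 0.08 for Cdkn1b (p27) and -0.34 ± 0.16 for Cdkn2c (p18) (SE; edgeR, adjusted p = 0.548 and 0.236).

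The kinase genes of G1 had lower means in KO. Cdk4 was at 27.4, 29.9, 28.7, 29.1, 28.3 and 30.1 CPM across the KO libraries and 29.9, 35.5, 32.1, 32.2, 33.0 and 32.5 CPM across WT libraries 1 to 6, where 4 KO libraries were below every WT library and libraries 2 and 6 overlapped WT library 1. In KO it was the least variable of the 40 genes, with an SD of 3.43% of the mean in KO and 5.61% in WT. Its log2 fold change was -0.17 ± 0.05 (SE, edgeR, adjusted p = 0.103). It passed with DESeq2 (adjusted p = 0.0335) but not in the authors' deposited table (adjusted p = 0.443). Cdk4 shares 641 exon bases with Tspan31 on the opposite strand, which had a mean of 5627 reads per library and a log2 fold change of 0.05, so its reads are uncertain.

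Cdk6, the partner kinase of Cdk4, was at 33.0, 28.9, 30.1, 23.8, 27.2 and 22.6 CPM across the KO libraries and 31.3, 36.6, 34.5, 33.2, 33.4 and 30.5 CPM across WT libraries 1 to 6. In all, 5 of 6 KO libraries were below every WT library and KO library 1 lay among the WT values (log2 fold change -0.27 ± 0.09, SE; edgeR, adjusted p = 0.110). For Cdk2, the kinase of the E-type cyclins, the log2 fold change came to -0.09 ± 0.12 (SE; edgeR, adjusted p = 0.691).

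Of the cyclin genes, Ccne2 was at 1.198, 1.16, 1.63, 1.38, 1.92 and 1.62 CPM across the KO libraries and 2.42, 2.02, 1.43, 2.00, 2.79 and 1.96 CPM across WT libraries 1 to 6. KO libraries 1, 2 and 4 were below every WT library, WT library 3 lay among the KO values, and the log2 fold change was -0.50 ± 0.19 (SE; edgeR, adjusted p = 0.157). Its close relative Ccne1 had -0.11 ± 0.30 (adjusted p = 0.873). Ccnd1, the cyclin that growth signals raise in regenerating liver, was at 24.7, 41.8, 19.9, 14.2, 29.6 and 28.8 CPM across the KO libraries and 17.7, 21.9, 33.2, 18.7, 19.0 and 9.70 CPM across WT libraries 1 to 6. KO library 2 was highest and WT library 6 lowest, and the rest overlapped (log2 fold change 0.40 ± 0.29, SE; edgeR, adjusted p = 0.447; 0.23 without KO library 2). The remaining D-type cyclin genes had log2 fold changes of 0.11 ± 0.10 (Ccnd2) and 0.09 ± 0.09 (Ccnd3), the transcription factor gene E2f1 had 0.24 ± 0.16 and the retinoblastoma gene Rb1 had -0.10 ± 0.10 (SE; edgeR, adjusted p from 0.408 to 0.614). Ccnd1, Ccnd3, Ccne2, Cdk2 and Rb1 each share exon bases with an opposite-strand gene that was also counted, as do Lig1, Ccna2 and Cdc20, so their reads are uncertain too. Among these neighbours, Bysl shares 361 exon bases with Ccnd3 and itself rose (log2 fold change 0.54, edgeR, adjusted p = 0.0350).

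Of the 12 measured mitosis genes, 0 passed the edgeR test, 0 had an unadjusted p under 0.05, and DESeq2 and limma-voom called 0. The median log2 fold change was 0.02, with 6 positive and 6 negative, and -0.22 without KO library 2. Mki67, which encodes the proliferation marker Ki-67, was at 4.37, 6.28, 3.93, 4.31, 3.59 and 2.98 CPM across the KO libraries and 4.54, 5.11, 3.06, 6.83, 6.12 and 5.88 CPM across WT libraries 1 to 6. Within each group the values ran over about the same span, with KO library 2 and WT libraries 4 to 6 highest and KO library 6 and WT library 3 lowest. The log2 fold change was -0.31 ± 0.20 (SE; edgeR, adjusted p = 0.411), and -0.45 without KO library 2. Top2a, the topoisomerase that untangles sister chromosomes, was at 2.03, 4.07, 2.24, 2.71, 1.62 and 1.95 CPM across the KO libraries and 2.24, 4.01, 1.71, 4.96, 3.68 and 2.70 CPM across WT libraries 1 to 6. WT libraries 2, 4 and 5 and KO library 2 were high for Top2a, and its log2 fold change was -0.40 ± 0.28 (SE; edgeR, adjusted p = 0.430). It was -0.61 without KO library 2 and -0.23 without WT library 4.

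Cdk1, the mitotic kinase, was at 1.42, 1.71, 1.01, 1.38, 1.08 and 1.12 CPM across the KO libraries and 0.727, 1.69, 0.677, 0.827, 1.92 and 0.541 CPM across WT libraries 1 to 6. All KO values lay inside the WT range, whose top was made of WT libraries 2 and 5 (log2 fold change 0.27 ± 0.31, SE; edgeR, adjusted p = 0.665). Its partner Ccnb1 was at 0.947, 1.23, 0.307, 0.596, 0.486 and 0.590 CPM across the KO libraries and 0.636, 0.767, 0.552, 1.60, 0.650 and 0.777 CPM across WT libraries 1 to 6. WT library 4 was highest and KO library 3 lowest (-0.25 ± 0.35; adjusted p = 0.726). Ccna2, the cyclin of S phase and early mitosis, was at 0.752, 1.81, 1.32, 1.00, 0.809 and 1.12 CPM across the KO libraries and 0.909, 1.43, 0.853, 1.25, 1.90 and 1.05 CPM across WT libraries 1 to 6. KO library 2 and WT library 5 were highest (-0.12 ± 0.27; adjusted p = 0.837; log2, SE, edgeR).

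Among the rest, Birc5, which encodes the chromosome passenger survivin, had the largest negative value (-0.40 ± 0.20; 1.45 ± 0.249 CPM in KO and 1.91 ± 0.443 CPM in WT, SD, n = 6 each) and its partner kinase gene Aurkb the largest positive value (0.41 ± 0.28; 0.708 ± 0.251 and 0.536 ± 0.149 CPM), which was 0.21 without KO library 2. Aurka, the spindle pole kinase gene, stood at 0.17 ± 0.17, the mitotic kinase gene Plk1 at 0.21 ± 0.45, and Cdc20, which activates the complex that ends mitosis, at 0.18 ± 0.35. Ccnb2 had -0.07 ± 0.33 and the mitotic transcription factor gene Foxm1 0.11 ± 0.26 (log2, SE; edgeR, adjusted p from 0.261 for Birc5 to 0.934 for Ccnb2). Without KO library 2 the values of Cdk1 (0.17), Ccnb1 (-0.50), Ccna2 (-0.30) and Ccnb2 (-0.36) also moved, and Plk1 and Cdc20 had negative values (-0.14 and -0.13).

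The mitosis genes varied more from library to library than between the groups. Their summed level was 19.2, 28.3, 17.5, 19.2, 14.4 and 19.4 CPM across KO libraries 1 to 6. It was 18.3, 22.2, 13.4, 27.0, 24.5 and 21.1 CPM across WT libraries 1 to 6. KO library 2 and WT library 4 had the highest sums and WT library 3 and KO library 5 the lowest. WT library 3 held the lowest WT value of 9 of the 12 genes and WT library 4 the highest of 7. For the G1 genes the summed level was also highest in KO library 2, at 286 CPM against 194 to 214 CPM in the other KO libraries and 186 to 217 CPM in WT, with 79.3 CPM of it from Cdkn1a. By gene, KO library 2 was highest among KO libraries for 3 of 13 G1 genes and lowest for 4 of 13.

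**Figure D4:**
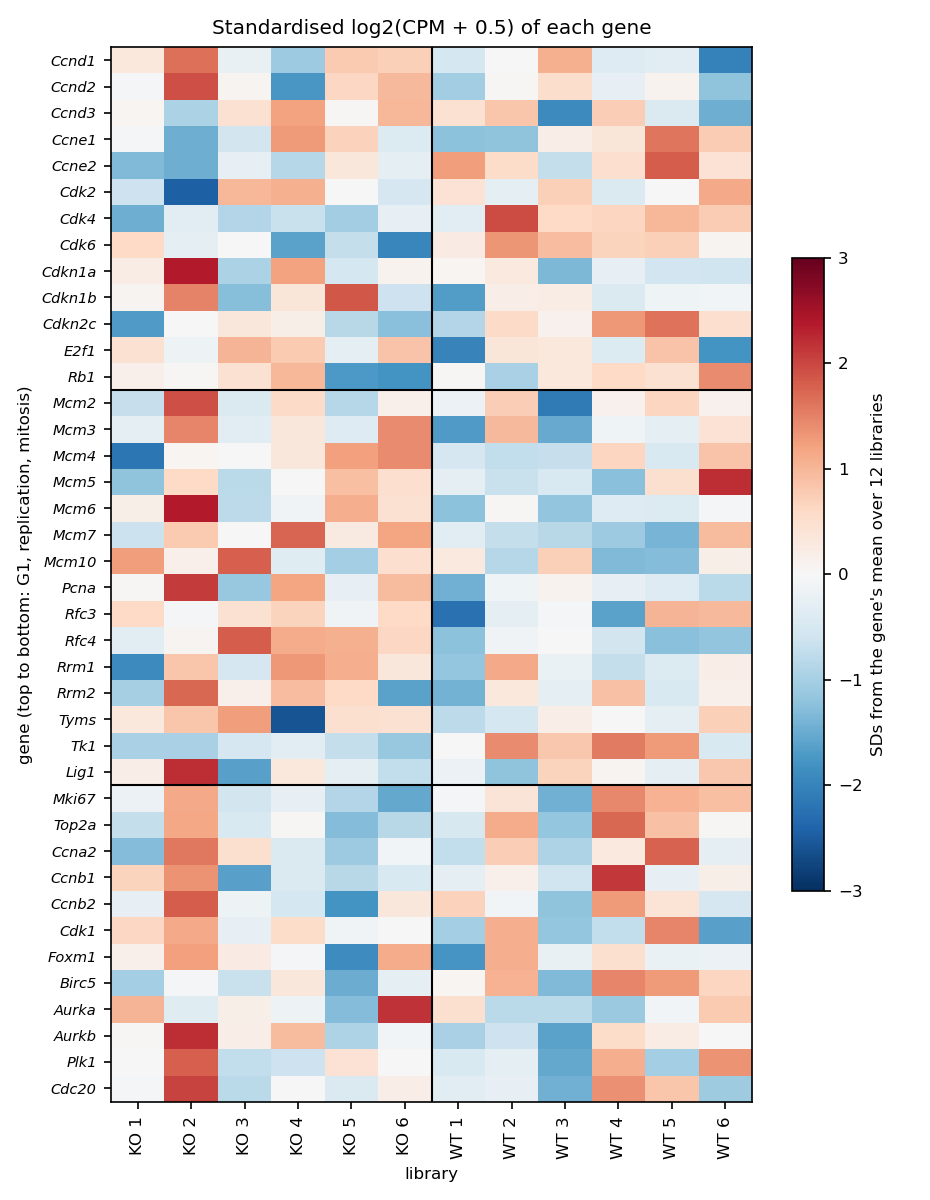
Each gene's log2(CPM + 0.5) in the 12 libraries as SDs from its own mean (red high, blue low), with KO left and WT right of the vertical line and G1, replication and mitosis genes from top to bottom. In the bottom block KO library 2 and WT library 4 are mostly red and WT library 3 mostly blue. The Tk1 row is blue through all 6 KO libraries and also in WT library 6.

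Other genes of the cell cycle, from lists drawn up by role, were read in the same fit. Over all genes, 2.64% were called with edgeR and 8.47% with DESeq2, and 21.2% had an unadjusted edgeR p under 0.05. Of 39 further replication genes (origin recognition, helicase loading, polymerases), 0 were called (edgeR; 6 at an unadjusted p under 0.05; 0 with DESeq2 and 0 with limma-voom), with a median log2 fold change of 0.06. Of 28 further mitosis genes 0 were called (3 at an unadjusted p under 0.05; with DESeq2 1, Bub3, and with limma-voom 0), with a median of -0.08. The smallest p in these lists belonged to the clamp loader gene Rfc1 (-0.22 ± 0.07; adjusted p = 0.117), Dbf4, which activates the kinase of replication origins (0.58 ± 0.20; 0.118), the spindle checkpoint gene Bub3 (0.29 ± 0.08; 0.0746) and the kinetochore motor gene Cenpe (-0.86 ± 0.30; 0.129; log2, SE, edgeR).

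Of 17 further G1 and E2F regulators 0 were called (4 at an unadjusted p under 0.05; with DESeq2 1, Cks1b, and with limma-voom 0), with a median of 0.19. Cks1b, an adaptor of cyclin-dependent kinases, had 0.59 ± 0.17 (adjusted p = 0.0808), and the growth regulator Myc had 1.68 ± 0.66 (log2, SE; edgeR, adjusted p = 0.176). Myc was at 29.5, 4.07, 2.00, 4.74, 1.94 and 2.92 CPM across KO libraries 1 to 6 and 1.93 to 2.53 CPM in WT, so KO library 1 alone made most of its mean. Of 8 genes of the DREAM and MYB complexes, which repress or activate cell cycle promoters, 0 were called (edgeR; 1 at an unadjusted p under 0.05; 0 with DESeq2 or limma-voom). Rbbp4 (0.31 ± 0.11; 0.133) and Lin37 (0.15 ± 0.12; adjusted p = 0.508) had the smallest p there.

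Of 9 kinases and phosphatases of the G2 checkpoint, 1 was called (edgeR; 4 at an unadjusted p under 0.05; with DESeq2 2, Wee1 and Plk3, and with limma-voom 1, Wee1). Wee1, the kinase that restrains Cdk1 and a known output of the circadian clock, was at 4.60, 3.56, 9.01, 6.50, 7.07 and 3.07 CPM across KO libraries 1 to 6. It was at 12.5, 21.3, 25.5, 22.5, 26.4 and 5.51 CPM across WT libraries 1 to 6. WT libraries 1 and 6 were the lowest of their group, as they were for Tk1, and WT library 6 lay among the KO values. Wee1 fell by 1.76 ± 0.38 (log2, SE; edgeR, adjusted p = 0.0350), a call that was kept in 3 of 12 fits with 1 library left out (without KO library 3, WT library 1 or WT library 6) and lost in the other 9, with an adjusted p of up to 0.0814.

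Of 15 growth factor and receptor genes of the liver, 1 was called (edgeR; 4 at an unadjusted p under 0.05; with DESeq2 2, Met and Axin2, and with limma-voom 1, Met). Met, the receptor of hepatocyte growth factor, was at 82.6, 55.5, 77.4, 61.4, 74.7 and 67.2 CPM across the KO libraries and 101, 103, 104, 103, 123 and 89.4 CPM across WT libraries 1 to 6. The groups did not overlap (as for 2.53% of all genes), and Met fell by 0.57 ± 0.10 (log2, SE, edgeR, adjusted p = 0.0176). The call was kept in 11 of 12 fits with 1 library left out. It was lost without WT library 4 (edgeR, adjusted p = 0.0502), where only 8 genes were called higher and 17 lower over the whole table.

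Of the markers of other cells, those of macrophages were called most often. All 13 macrophage markers had negative log2 fold changes, where 50.6% of all genes had positive ones. In edgeR 3 fell (Cd5l, Adgre1 and Vsig4), beside 2.64% of all genes called. DESeq2 called 11, beside 8.47% of all genes. The list had a summed level of 297, 345, 306, 491, 252 and 279 CPM across KO libraries 1 to 6. It was 463, 657, 416, 571, 616 and 474 CPM across WT libraries 1 to 6, so the sums overlapped through KO library 4. By gene, all KO values lay below all WT values for Cd5l, Clec4f and Timd4. The groups did not overlap for 2.53% of all genes. WT libraries 2, 4 and 5 had the highest macrophage sums and also the highest Tk1 and Top2a values of their group. KO library 2, the highest of its group for most mitosis genes, had a macrophage sum of 345 CPM. KO library 4 had the highest KO macrophage sum (491 CPM) and also the highest KO value of Tk1 (16.4 CPM). WT library 3 had the lowest WT macrophage sum (416 CPM), with Tk1 at 28.4 CPM, above WT libraries 1 and 6. The part of macrophages in the Tk1 result was not tested.

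Calls of the 3 were lost without WT library 2 or 4, of Adgre1 and Vsig4 also without KO library 6 or WT library 5, and of Vsig4 also without KO library 1 or 5 or WT library 1. Of 14 T and NK cell markers 7 had a row, and Lck fell (edgeR), a call kept in 4 of 12 fits with 1 library left out. Its values did not overlap, as for 2.53% of all genes (at most 0.461 CPM in KO and at least 0.527 CPM in WT). Log2 fold changes were negative for 5 of the 6 tested (median -0.80), and Cd4 was the positive one (3.69 ± 0.919 CPM in KO and 2.79 ± 1.47 CPM in WT, SD, n = 6 each). Sums were 5.47 to 6.49 CPM in KO and 4.51 to 9.56 CPM in WT; Cd8a, Nkg7 and Gzma were at 0 in at least 1 library. Sums were 217 to 333 CPM in KO and 199.99 to 294 CPM in WT for 9 B and plasma cell markers. Xbp1 made most of these sums (262 ± 38.1 CPM in KO and 229 ± 35.4 CPM in WT, SD, n = 6 each; log2 fold change 0.19 ± 0.12, SE), and the other 8 markers had negative log2 fold changes (median of all 9 -0.44). Sums were 8.66 to 19.98 CPM in KO and 10.6 to 32.2 CPM in WT for 7 neutrophil markers, of which 7 had negative log2 fold changes (median -0.63). They were 199 to 368 and 127 to 247 CPM for 8 erythroid markers (4 negative), 234 to 316 and 247 to 341 CPM for 10 sinusoidal markers (10 negative, median log2 fold change -0.15), 344 to 553 and 407 to 660.4 CPM for 10 stellate markers (3 negative) and 62.3 to 151 and 60.2 to 128 CPM for 7 cholangiocyte markers (1 negative). These 6 lists had 0 calls (edgeR, DESeq2 and limma-voom; 4 genes at an unadjusted p under 0.05 in edgeR), and no other marker with a row was at 0 in any library. Among 10 hepatocyte markers Tat rose, a call lost without WT library 4 (edgeR, adjusted p = 0.0502).

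Of 18 clock genes, Cry1 rose and Tef and Hlf fell in edgeR, beside 2.64% of all genes called. DESeq2 called 12, beside 8.47% of all genes. With limma-voom 5 were called, with Tef and Hlf but not Cry1, beside 163 higher and 231 lower among all 15000 genes. The 18 clock genes had a median log2 fold change of -0.60, with 13 negative. Their summed level was 660.1, 625, 873, 772, 809.9 and 584 CPM across KO libraries 1 to 6. It was 956, 1176, 1335, 1177, 1200.2 and 844 CPM across WT libraries 1 to 6. With 1 library left out in turn, the edgeR call was kept in 3 of 12 fits for Cry1, 5 for Tef and 8 for Hlf. The lowest WT sums were those of libraries 1 and 6, the libraries that were also lowest for Tk1, Afmid and Wee1. WT library 3 had the highest clock sum, but its Tk1 level (28.4 CPM) was below that of WT libraries 2, 4 and 5. KO library 3 had a higher clock sum than WT library 6. The sums pool genes that rose with genes that fell. The part of the clock in the Tk1 result was not tested.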

How the data were processed

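Liver polyA RNA-seq libraries were compared, 6 KO and 6 WT, grouped by their labels. The authors deposited 1 table of raw gene counts with a log2 fold change and an adjusted p-value per gene. The submitters' processing notes name HISAT2, featureCounts, SAMtools, FastQC, Trimmomatic and DESeq2, with the build GRCm38. Neither versions, nor the annotation release, nor the strand or multi-mapping setting is given in the sources used here. Of 15344 deposited rows, 204 repeated a gene and were left out, which left 15140 genes, with a lowest total of 15 counts.

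Counts as deposited were tested with edgeR 4.0.16 (R 4.3.3): filterByExpr kept 15000 genes and removed 140, TMM scaled the libraries, and the quasi-likelihood test gave p-values, adjusted by Benjamini-Hochberg over all 15000 with a threshold of 0.05. The 40 measured members all passed the filter. CPM values use the TMM-scaled library sizes. The SE of a log2 fold change was derived as its size divided by the square root of F. Levels per kilobase use exon lengths of GENCODE M21, which also gave the gene overlaps. The fit was tested on simulated data with 200 changed genes.

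The members and lists were chosen with earlier results of these data known. Every measured member is named. Values in every library are given for Mki67, Top2a, Cdk1, Ccnb1, Ccna2, Mcm2, Pcna, Ccnd1 and Cdkn1a and for members with an unadjusted p under 0.05. Of every other list of pathway genes, those called are named, or else up to 2 with the smallest p. Values of Mcm10, and of Myc, Afmid and the marker sums, were added after they were seen. Library values of Wee1 and Met, and the summed levels of the p53, clock, G1 and mitosis genes, are also given and lie outside this rule.

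Alternatives were DESeq2 1.42.0, limma-voom (limma 3.58.1), other scalings and filters, a replicate block and leaving out each library. No library was a copy of another of its group: chi-square divided by its degrees of freedom was 38.6 to 245.7 over the 30 pairs within groups.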

Additional observations from a re-analysis of the deposited data

Results flagged for a closer look

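In 5 of 80 groups of 6 libraries (40 genes in KO and in WT), 1 library lay far from the others, where chance gives about 4 (1 in 20). The measure is the gap to the nearest library as a share of the group's range in log2 CPM, set against Dixon's critical value for 6 samples. Tyms was low in KO library 4, at 3.82 CPM against 5.82 to 6.64 in the rest (share 0.762). Mcm2 was low in WT library 3, at 2.36 CPM against 3.73 to 4.58 (0.690). Ccnb1 was high in WT library 4, at 1.60 CPM against 0.552 to 0.777 (0.678). Cdkn1b was low in WT library 1, at 27.9 CPM against 31.2 to 33.0 (0.660). Foxm1 was low in KO library 5, at 0.405 CPM against 0.732 to 1.03 (0.631). None of the 5 genes passed the edgeR test (adjusted p from 0.548 for Cdkn1b to 0.848 for Mcm2).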

How the results depend on the processing

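Tk1 was called under every setting except without KO library 6 or WT library 2, 4 or 5, and kept its direction throughout. The number of cell cycle genes called was 1, 3 with DESeq2, and 0 to 1 with 1 library left out. Over all genes, 396 were called, 1232 with DESeq2, 257 with total counts only, and 25 (without WT library 4) to 700 (without WT library 6). Leaving out WT library 2 gave 46, WT library 5 gave 89, KO library 6 gave 86 and KO library 2 gave 235. Without WT library 2, 4 or 5 or KO library 6, most calls over all genes were lost. A call lost in those fits is thus not particular to its gene. The median log2 fold change was -0.09 for G1 genes and -0.16 to 0.079 with 1 library left out, 0.12 and 0.07 to 0.19 for replication genes, and 0.02 and -0.22 to 0.13 for mitosis genes, which had -0.02 with limma-voom, -0.01 with the replicate block and -0.11 with at least 1 CPM in 6 libraries.

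Whether the replicate numbers pair KO and WT libraries is not given in the sources used here. The correlation of deviations was -0.02, 0.38, 0.12, 0.23, -0.24 and 0.18 for numbers 1 to 6. KO library 2 and WT library 2 correlated best with each other, while most other libraries did not correlate best with their own number. Such correlations cannot decide whether the libraries were paired. With the replicate block 374 genes were called and 1 cell cycle gene, Tk1 (log2 fold change -1.09; edgeR, adjusted p = 0.0198).

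Signs turned for genes that were never called. Mcm5 had 0.037 with limma-voom, 0.0030 with the replicate block and -0.13 to 0.19 with 1 library left out. With 1 library left out the log2 fold changes ran from -0.29 to 0.086 for Ccne1, -0.065 to 0.13 for Mcm2, -0.14 to 0.14 for Lig1, -0.30 to 0.048 for Ccna2, -0.50 to 0.044 for Ccnb1, -0.36 to 0.088 for Ccnb2, -0.0033 to 0.23 for Foxm1, -0.14 to 0.49 for Plk1 and -0.13 to 0.40 for Cdc20. The cause was not tested. Mitosis genes had 8 to 261 reads per library, which limits what can be seen for them.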
